A study of Mus musculus with 6 samples.

Results

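Focal adhesions are the sites where a cell grips its matrix. Integrins, pairs of an alpha and a beta chain, bind matrix outside the cell, and inside it talin and kindlin switch them on. Vinculin, alpha-actinin, filamin, tensin and the LIM-domain adaptors then tie them to actin filaments, while the kinases FAK and Src and the adaptor p130Cas pass signals on. In fibroblasts these sites carry the pull of contractile stress fibres and enlarge as the cells become contractile myofibroblasts.

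The account covers 34 genes of this machinery, chosen by symbol as adhesion plaque proteins, filamins and integrin beta chains, out of 33682 rows in the deposited gene table. Each symbol matched 1 row, and 33 of the 34 rows are annotated as protein-coding. The remaining row is Itgb5, which the table lists as a processed transcript. The cells were cultured neonatal rat heart cells, labelled wild type, kept in conditioned medium of bone marrow-derived mast cells that had been given TNF-alpha. In 3 samples the mast cells lacked Alox5 (ALOX5-/-, called Alox5KO medium here), and in 3 they were wild type (WT medium). Alox5 encodes 5-lipoxygenase, which begins leukotriene synthesis, and the contrast addresses what leukotriene-competent mast cells do to the heart cells through their medium. Both media came from TNF-alpha-treated mast cells, so that treatment is common to all 6 samples, and no sample without mast cell medium was analysed here. The time in medium and the way the knockout mast cells were made are not given in the sources used here.

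The 6 libraries held between 13284088 and 15766187 reads recovered from the FPKM values (fragments per kilobase of gene, scaled to library size). The labels say cardiomyocytes and the design text fibroblasts; summed over 11 fibroblast markers the libraries held 8049 to 8926 FPKM with Alox5KO medium and 8814 to 9365 FPKM with WT medium, overlapping ranges made up mostly of collagens, Postn and, with WT medium, Dcn. Within that list Dcn, Lum and Pdgfra were called lower and Col3a1 and Tcf21 higher: Dcn averaged 134 ± 66.3 FPKM with Alox5KO medium and 2219 ± 711 FPKM with WT medium, and Pdgfra 37.6 ± 4.36 FPKM with Alox5KO medium and 80.6 ± 4.58 FPKM with WT medium (SD, n = 3 each). The 11 cardiomyocyte markers summed to 107 to 132 FPKM with Alox5KO medium and 32.0 to 57.0 FPKM with WT medium, with Myl2, the ventricular myosin light chain, at 0 in all 6 libraries. Tnnt2 made up most of this sum, while Tnni3, Ryr2 and Myl7 reached at most 0.462 FPKM in any library. The 10 smooth muscle and pericyte markers summed to 192 to 318 FPKM with Alox5KO medium and 79.6 to 106 FPKM with WT medium, with the pericyte gene Rgs5 at 0 to 0.174 FPKM. Of these, Cnn1 alone held 74.2 to 161 FPKM with Alox5KO medium and 8.92 to 19.1 FPKM with WT medium. Kcnj8 and Abcc9 were called lower and 6 of the 9 tested genes higher, or 66.7% higher against 10.0% of all tested genes. Leukocyte markers (8 genes) summed to 22.0 to 33.0 FPKM with Alox5KO medium and 40.0 to 46.2 FPKM with WT medium. Coro1a, called lower, and Lyz2, with a log2 fold change of 0.498 and not called, made up most of this sum. Ptprc, Csf1r and Cd3e reached at most 0.357 FPKM in any library. Endothelial markers (7 genes) summed to 11.0 to 13.0 FPKM with Alox5KO medium and 13.6 to 15.6 FPKM with WT medium. Most of that was Egfl7, not called, and Tek, called lower, while Cdh5, Kdr and Vwf reached at most 0.138 FPKM. Mast cell markers (8 genes) summed to 17.0 to 25.1 FPKM with Alox5KO medium and 38.1 to 53.6 FPKM with WT medium, nearly all of it Cpa3, while Tpsb2, Fcer1a and Ms4a2 were at 0 throughout. In all 6 libraries the fibroblast sum was far above each other sum, so fibroblast genes dominated the markers measured. All these sums except that of the fibroblast markers differed without overlap between the media, as did 37.6% of all tested genes. With so few genes behind them, the leukocyte and endothelial sums do not show that such cells were present. The part of these markers in the results that follow was not tested. In such bulk libraries fewer cells of a type and less RNA per cell cannot be told apart. Alox5 itself had 0.436, 0.288 and 0.154 FPKM with Alox5KO medium, against 2.65, 3.28 and 3.47 FPKM with WT medium, although the knockout lay in the donors of the medium, so this checks no label.

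With Alox5KO medium most adhesion plaque genes were more abundant, and the rise was uneven across the plaque. Vinculin, the LIM protein PINCH-2 (Lims2), nexilin, tensin-1 and integrin beta-5 rose the most, while talin-1 and zyxin stayed within the spread between libraries. Integrin beta-3, integrin beta-8, talin-2 and beta-parvin fell. Of the 34 genes 33 passed the filter of a mean of at least 1 FPKM, each with at least 1 FPKM in both groups. Of these 33, 21 were called higher, 4 lower and 8 were not called (limma on log2(FPKM + 1) with p-values adjusted by Benjamini and Hochberg, BH, over all tested genes, at a threshold of 0.05; a log2 fold change here is on that scale and its error is the standard error, SE). The members called higher were 63.6% of those tested and the members called lower 12.1%. Across all 12341 tested genes 20.7% were called, 10.0% higher and 10.6% lower, so the share of falls among members was near the background. The groups did not overlap for 26 of the 33 members, or 78.8%, against 37.6% of all tested genes. The median log2 fold change was 0.49 over the members and -0.0008 over all tested genes. Members were chosen with earlier results of these data known, so these comparisons describe the list and do not test it. Among the members 10 rose by at least 1 log2 unit and 2 fell by that much, against 3.07% and 3.31% of all tested genes. The counts of higher members ran from 16 (without WT-medium replicate 1) to 23 (without WT-medium replicate 3) with 1 library left out, and the lower count stayed at 4. Nothing in the labels says that replicates came from separate cultures, so p-values measure only how these samples vary, and that variation may be technical.

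**Figure D1:**
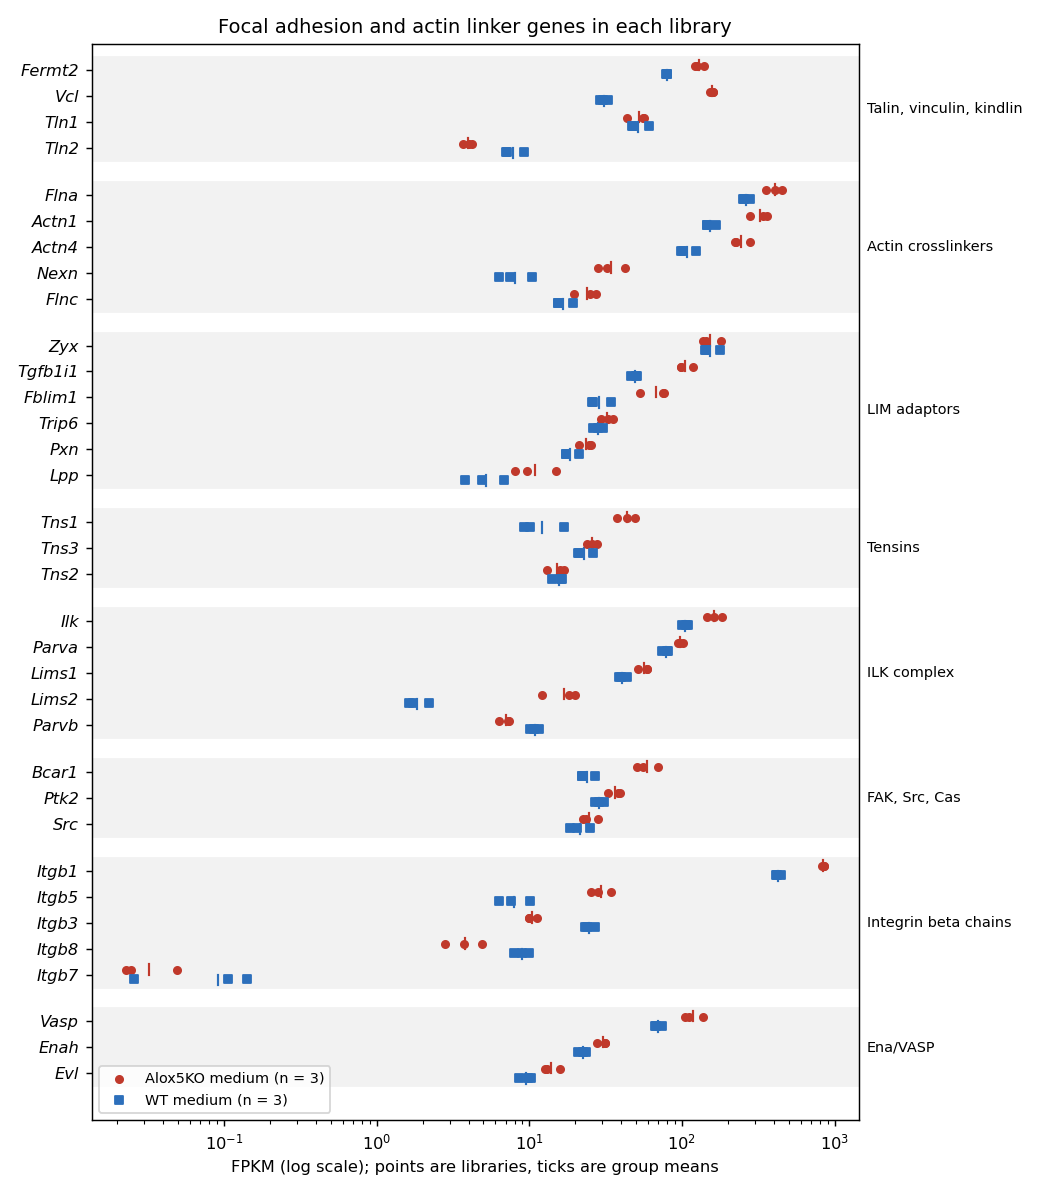
FPKM of each member on a log axis, grouped by role, with Alox5KO-medium libraries as red circles above WT-medium libraries as blue squares and group means as vertical ticks. Vcl lies at 153 to 160.2 FPKM with Alox5KO medium and 28.9 to 32.8 with WT medium, whereas the points of Tln1 and Zyx overlap.

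Together the 34 genes held 3216, 3316 and 3555 FPKM with Alox5KO medium and 1858, 1893 and 2049 FPKM with WT medium. The groups did not overlap in this sum. Itgb1 alone made up 26.5%, 24.9% and 23.9% of it with Alox5KO medium and 22.4%, 23.7% and 20.6% with WT medium. Itgb1, Flna, Actn1 and Actn4 were the 4 most abundant members with Alox5KO medium, at means of 843, 406, 326 and 243 FPKM. With WT medium the order was Itgb1, Flna, Zyx and Actn1, at 429, 262, 154 and 153 FPKM, the last pair being closer than their spread. Vcl stood sixth among members with Alox5KO medium and at place 13 with WT medium. Among all tested genes its mean lay at percentile 95.9 with Alox5KO medium and at percentile 77.3 with WT medium, and that of Lims2 at percentile 62.8 with Alox5KO medium and 9.92 with WT medium.

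The first link in the chain is formed by talin, kindlin and vinculin, and its 4 genes went separate ways. Vcl (ENSRNOG00000010765, chromosome 15, 3455211 to 3544702 in the table's coordinates) encodes vinculin, which binds stretched talin and reinforces its hold on actin. Vcl had 160.2, 153 and 159.6 FPKM with Alox5KO medium, against 28.9, 30.6 and 32.8 FPKM with WT medium. All 3 Alox5KO-medium values lay far above the WT-medium values, a log2 fold change of 2.32 ± 0.09 (SE; limma, BH-adjusted p = 1.1e-06). Tln1 (chromosome 5, 59033636 to 59063592), which encodes talin-1, the vinculin-binding activator of integrins, had 43.8, 56.4 and 55.6 FPKM with Alox5KO medium, against 47.0, 47.8 and 60.9 FPKM with WT medium. The groups overlapped, and the log2 fold change was 0.002 with a 95% confidence interval from -0.31 to 0.31. Tln2, the second talin, is less abundant and had 3.65, 4.01 and 4.19 FPKM with Alox5KO medium, against 7.18, 7.02 and 9.25 FPKM with WT medium. It fell by 0.82 on the log2 scale (SE 0.13; limma, BH-adjusted p = 0.0024). Fermt2, encoding kindlin-2, the partner of talin at the integrin tail, rose to 140.2, 121 and 125 FPKM with Alox5KO medium, against 79.3, 79.0 and 79.8 FPKM with WT medium. Its log2 fold change was 0.69 ± 0.09 (SE; limma, BH-adjusted p = 0.00094). The ratio of Vcl to Tln1 within a library, chosen after the values were seen and not tested, was 3.66, 2.71 and 2.87 with Alox5KO medium and 0.614, 0.639 and 0.538 with WT medium.

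All 5 genes of actin crosslinkers and bundlers rose, against 10.0% of all tested genes, with a median log2 fold change of 1.09. Actn1 and Actn4 encode the non-muscle alpha-actinins, which bundle actin filaments and bind vinculin and integrin tails. Actn1 had 279, 337 and 363 FPKM with Alox5KO medium, against 146, 145 and 167 FPKM with WT medium, and rose by 1.09 ± 0.12 (SE; limma, BH-adjusted p = 0.00034). Actn4 had 223, 227 and 279.6 FPKM with Alox5KO medium, against 102, 98.9 and 123 FPKM with WT medium. It rose by 1.17 ± 0.13 (SE; limma, BH-adjusted p = 0.00028), and neither actinin had overlapping groups. Flna (chromosome X, 156463953 to 156487245), the gene of filamin A, which crosslinks actin into networks and competes with talin for integrin tails, had 358, 449.7 and 409 FPKM with Alox5KO medium and 251, 256 and 279 FPKM with WT medium. It rose by 0.62 ± 0.11 (SE; limma, BH-adjusted p = 0.0047), without overlap. Flnc, the filamin of striated muscle, had 19.6, 27.4 and 25.0 FPKM with Alox5KO medium and 15.4, 15.3 and 19.5 FPKM with WT medium. The lowest Alox5KO-medium value was close to the highest WT-medium value, and the rise of 0.49 (limma, BH-adjusted p = 0.042) lost its call without Alox5KO-medium replicate 2 or 3 or WT-medium replicate 1 or 2, at adjusted p of 0.12, 0.13, 0.14 and 0.13, and with no filter or TPM scaling, at 0.092 and 0.061. Nexn (chromosome 2, 257453347 to 257484587), encoding nexilin, an actin-binding protein of adhesions and of muscle Z-discs, had 42.3, 32.4 and 28.0 FPKM with Alox5KO medium, against 6.32, 7.41 and 10.4 FPKM with WT medium. It rose by 1.97 ± 0.20 (SE; limma, BH-adjusted p = 0.00031). Nexn and Flnc are also expressed in cardiomyocytes, whose troponin gene Tnnt2 had 91.6, 77.3 and 71.0 FPKM with Alox5KO medium and 30.0, 22.8 and 16.1 FPKM with WT medium. Tnni3, Ryr2, Myl2 and Myl7 were too low to be tested. Of the 7 tested cardiomyocyte markers 5 were called higher, or 71.4% against 10.0% of all tested genes, while Nppa and Myh6 were not called. Only 4 of the 7 had at least 1 FPKM in both groups. A part of such cells in the rises of Nexn and Flnc was not tested.

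**Figure D2:**
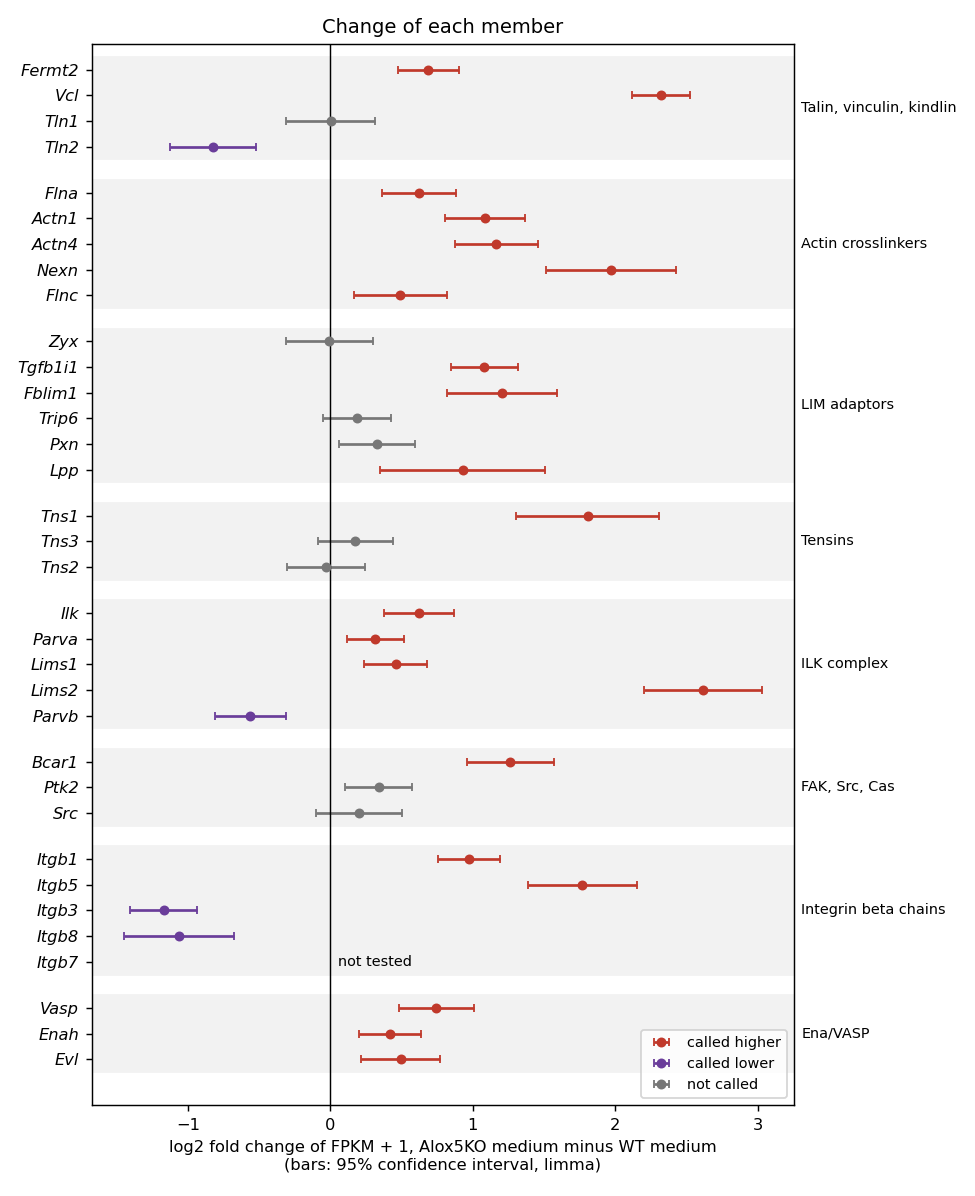
Log2 fold change of FPKM + 1 in Alox5KO medium minus WT medium for each member, with 95% confidence intervals from limma; colours mark members called higher, called lower and not called. All 5 crosslinkers and all 3 Ena/VASP genes lie right of 0, and the integrin beta chains fall on both sides.

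Among the 6 LIM-domain adaptors 3 rose, or 50%, against 10.0% of all tested genes, and 3 were not called. These proteins shuttle between adhesions, stress fibres and the nucleus. Tgfb1i1, named for its induction by TGF-beta and encoding Hic-5, a close relative of paxillin, had 98.9, 98.6 and 118 FPKM with Alox5KO medium, against 46.7, 50.1 and 50.4 FPKM with WT medium. It rose by 1.08 ± 0.10 (SE; limma, BH-adjusted p = 0.00012). Pxn, encoding paxillin itself, had 21.0, 24.5 and 25.2 FPKM with Alox5KO medium and 17.3, 17.3 and 21.2 FPKM with WT medium. These ranges overlapped slightly, and the log2 fold change of 0.33 (interval 0.06 to 0.59) did not pass at an adjusted p of 0.084 in limma, and passed at 0.036 without WT-medium replicate 3. Fblim1, encoding migfilin, which joins filamin to kindlin, rose by 1.21, with 74.6, 52.9 and 76.4 FPKM with Alox5KO medium, against 25.7, 26.1 and 34.5 FPKM with WT medium (limma, BH-adjusted p = 0.0014). The zyxin relative Lpp had 9.59, 15.0 and 8.03 FPKM with Alox5KO medium and 4.92, 3.81 and 6.79 FPKM with WT medium. Its rise of 0.93 (SE 0.25; limma, BH-adjusted p = 0.036) lost its call without Alox5KO-medium replicate 1 or 2 or WT-medium replicate 1 or 2, at adjusted p of 0.083, 0.055, 0.11 and 0.10, and with no filter, at 0.069. Zyx, whose product zyxin moves along stress fibres under tension, was abundant in all libraries, at 137, 144 and 179 FPKM with Alox5KO medium and 144, 141 and 176 FPKM with WT medium. Its log2 fold change was -0.01 with an interval from -0.31 to 0.30, and it turned to 0.0648 with quantile normalization and 0.0531 with TPM scaling. Trip6, another zyxin relative, had a log2 fold change of 0.19 (interval -0.05 to 0.43) and was not called. In the table's own domain annotation 6 members carry a LIM domain, 4 of which rose, although the annotation lists none for paxillin or migfilin.

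The tensins, which sit on the mature, elongated adhesions of fibroblasts, divided by paralog. Tns1 (chromosome 9, 81194119 to 81400987) had 37.7, 49.6 and 43.6 FPKM with Alox5KO medium, against 10.1, 9.28 and 16.8 FPKM with WT medium. No library overlapped, and tensin-1 rose by 1.81 ± 0.21 (SE; limma, BH-adjusted p = 0.00099). Tns3 had 25.9, 23.7 and 27.8 FPKM with Alox5KO medium and 20.9, 21.3 and 26.3 FPKM with WT medium, and Tns2 had 13.0, 15.9 and 16.9 FPKM with Alox5KO medium and 16.1, 14.1 and 16.5 FPKM with WT medium. Neither was called, with intervals from -0.09 to 0.44 for Tns3 and from -0.31 to 0.24 for Tns2, whose log2 fold change of -0.03 turned to 0.0248 with TPM scaling. Tns1 was thus the most abundant tensin with Alox5KO medium, whereas with WT medium its mean of 12.1 ± 4.15 FPKM (SD, n = 3) was below that of Tns3, 22.9 ± 3.01 FPKM (SD, n = 3).

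Integrin-linked kinase, PINCH and parvin form the IPP complex, a scaffold between the integrin tail and actin. Of its 5 genes 4 rose and 1 fell, against 10.0% higher and 10.6% lower among all tested genes. Lims2 (ENSRNOG00000016021, chromosome 18, 24708115 to 24746159), the gene of PINCH-2, had the largest fold change of the 33 tested members. It had 18.2, 12.1 and 20.0 FPKM with Alox5KO medium, against 1.64, 1.72 and 2.19 FPKM with WT medium, from 1885 and 188 reads in all. The mean with Alox5KO medium was 9.07 times that with WT medium. On the log2(FPKM + 1) scale the change was 2.62 ± 0.18 (SE; limma, BH-adjusted p = 2e-05), and it was 3.14 in a limma-voom fit to the recovered reads, which adds no such pseudocount. Lims1, the gene of the widely expressed form PINCH-1, had 58.6, 58.7 and 51.3 FPKM with Alox5KO medium and 39.7, 38.8 and 43.4 FPKM with WT medium. It rose by 0.46 (limma, BH-adjusted p = 0.01), a call lost at 0.052 without WT-medium replicate 1. Ilk, the scaffold's core, had 162, 145 and 182 FPKM with Alox5KO medium and 106, 109 and 100.4 FPKM with WT medium, a rise of 0.62 (limma, BH-adjusted p = 0.0034). The parvins link the complex to actin, and they moved in opposite directions. Parva had 93.7, 101 and 97.8 FPKM with Alox5KO medium and 74.3, 79.6 and 80.4 FPKM with WT medium, and rose by 0.32 (limma, BH-adjusted p = 0.035). That call was lost with any of Alox5KO-medium replicates 1, 2 and 3 or WT-medium replicates 1 and 2 left out, at adjusted p of 0.051, 0.085, 0.082, 0.17 and 0.094. Parvb had 7.30, 6.35 and 7.40 FPKM with Alox5KO medium, against 10.1, 11.6 and 10.7 FPKM with WT medium. It fell by 0.56 ± 0.11 (SE; limma, BH-adjusted p = 0.0065).

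**Figure D3:**
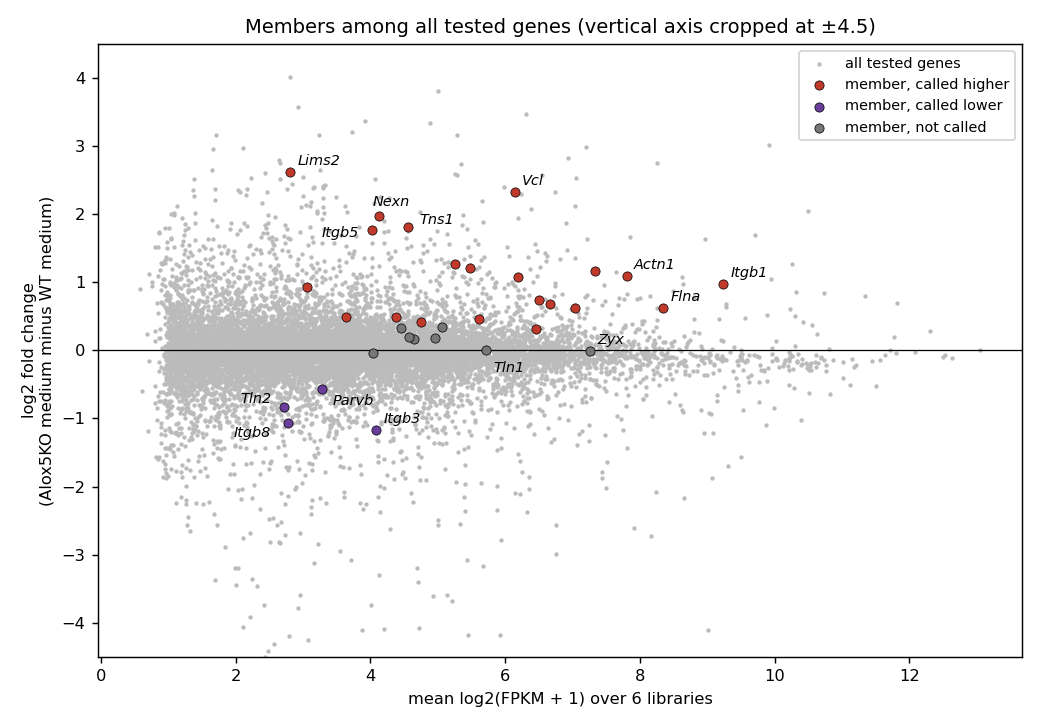
Log2 fold change (Alox5KO medium minus WT medium) against mean log2(FPKM + 1) for all 12341 tested genes in grey, with the 33 tested members in colour by call. Members called higher span the range of levels from Lims2 to Itgb1. Of the 4 called lower, Itgb3 and Parvb lie within that range and Tln2 and Itgb8 just below it. All 4 lie below the most abundant members.

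Of the adhesion signalling members only the adaptor was called. Bcar1 encodes p130Cas, a Src substrate that is phosphorylated when stretched, and had 50.8, 55.8 and 69.3 FPKM with Alox5KO medium, against 22.0, 22.3 and 27.0 FPKM with WT medium. It rose by 1.26 ± 0.14 (SE; limma, BH-adjusted p = 0.00024). Ptk2, the gene of focal adhesion kinase, had 37.9, 32.6 and 39.1 FPKM with Alox5KO medium and 26.7, 28.5 and 30.7 FPKM with WT medium. The groups did not overlap, and the log2 fold change of 0.34 (interval 0.10 to 0.58) just missed the threshold at an adjusted p of 0.051 in limma. It passed at 0.028 without Alox5KO-medium replicate 2 and at 0.048 without WT-medium replicate 3, and at 0.045, 0.037, 0.035 and 0.042 with a filter of 5 FPKM, quantile normalization, TPM scaling and limma-voom. Src had 23.4, 22.5 and 28.0 FPKM with Alox5KO medium and 20.6, 18.4 and 25.0 FPKM with WT medium, overlapping ranges with an interval from -0.10 to 0.50.

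All 3 Ena/VASP genes, whose products lengthen actin filaments at adhesions, rose by less than 1 log2 unit, while 10.0% of all tested genes were called higher. Vasp had 111, 105 and 137 FPKM with Alox5KO medium and 67.7, 66.9 and 73.6 FPKM with WT medium, a rise of 0.74 (limma, BH-adjusted p = 0.0021). Enah, also called Mena, had 31.5, 27.9 and 31.1 FPKM with Alox5KO medium and 22.6, 23.5 and 20.9 FPKM with WT medium, a rise of 0.42 (limma, BH-adjusted p = 0.014). Evl had 12.7, 13.0 and 15.8 FPKM with Alox5KO medium and 10.3, 8.51 and 9.75 FPKM with WT medium, a rise of 0.49 (limma, BH-adjusted p = 0.02). No values overlapped between groups for these 3 genes. The Enah call was lost at 0.057 without WT-medium replicate 1, and the Evl call at 0.062 and 0.080 without Alox5KO-medium replicate 3 or WT-medium replicate 2.

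The integrin beta chains moved in both directions. Itgb1 (ENSRNOG00000010966, chromosome 19, 61677542 to 61725535) encodes the beta chain shared by most collagen, laminin and fibronectin receptors. It had 853, 827 and 850.5 FPKM with Alox5KO medium, against 416, 449 and 422 FPKM with WT medium. Replicates lay close together and the gene rose by 0.97 ± 0.10 (SE; limma, BH-adjusted p = 0.00015). Itgb3, Itgb5 and Itgb8 encode partners of the alpha-v chain, in receptors for vitronectin and, for some of them, for latent TGF-beta. Itgb5 had 25.5, 28.3 and 34.1 FPKM with Alox5KO medium, against 7.55, 6.29 and 10.1 FPKM with WT medium, and rose by 1.77 ± 0.17 (SE; limma, BH-adjusted p = 0.00014). Itgb3 (chromosome 10, 92667869 to 92783410) went the other way, with 9.92, 11.2 and 9.97 FPKM with Alox5KO medium, against 26.9, 23.0 and 23.8 FPKM with WT medium. It fell by 1.17 ± 0.10 (SE; limma, BH-adjusted p = 7.5e-05). Itgb8 had 3.72, 4.91 and 2.80 FPKM with Alox5KO medium, against 9.89, 8.97 and 7.97 FPKM with WT medium, and fell by 1.07 ± 0.17 (SE; limma, BH-adjusted p = 0.0022). The ratio of Itgb5 to Itgb3 within a library, chosen after the values were seen and not tested, was 2.57, 2.53 and 3.42 with Alox5KO medium and 0.280, 0.273 and 0.424 with WT medium. Itgb7, a chain of lymphocyte integrins, had 4 reads with Alox5KO medium and 10 with WT medium over 3 libraries each and was not tested. Itgb1 made up 95.6%, 94.9% and 94.8% of the summed beta-chain FPKM with Alox5KO medium, and 90.3%, 92.1% and 91.0% with WT medium.

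Related members were set against each other within each library, for 7 pairs in all, with the exact two-sided permutation test over samples, which cannot go below p = 0.1 with 3 against 3. Tns1 to Tns3 was 1.70 ± 0.339 with Alox5KO medium and 0.519 ± 0.107 with WT medium (SD, n = 3 each; exact p = 0.1). Lims2 to Lims1 was 0.302 ± 0.0928 with Alox5KO medium and 0.0454 ± 0.00472 with WT medium (SD, n = 3 each; exact p = 0.1), so Lims1 was the more abundant in all 6 libraries. In the opposite direction, Tln2 to Tln1 was 0.0766 ± 0.00631 with Alox5KO medium and 0.150 ± 0.00321 with WT medium (SD, n = 3 each; exact p = 0.1). Parvb to Parva was 0.0722 ± 0.00811 with Alox5KO medium and 0.139 ± 0.00648 with WT medium (SD, n = 3 each; exact p = 0.1). Itgb3 to Itgb1 was 0.0123 ± 0.00107 with Alox5KO medium and 0.0575 ± 0.00674 with WT medium (SD, n = 3 each; exact p = 0.1). In these 5 pairs the groups did not overlap, and the p adjusted over the 7 pairs was 0.14. Actn1 to Actn4 was 1.35 ± 0.123 with Alox5KO medium and 1.42 ± 0.0536 with WT medium (SD, n = 3 each; exact p = 0.4), and Flnc to Flna was 0.0590 ± 0.00365 with Alox5KO medium and 0.0636 ± 0.00529 with WT medium (SD, n = 3 each; exact p = 0.4), so those pairs overlapped between groups.

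**Figure D4:**
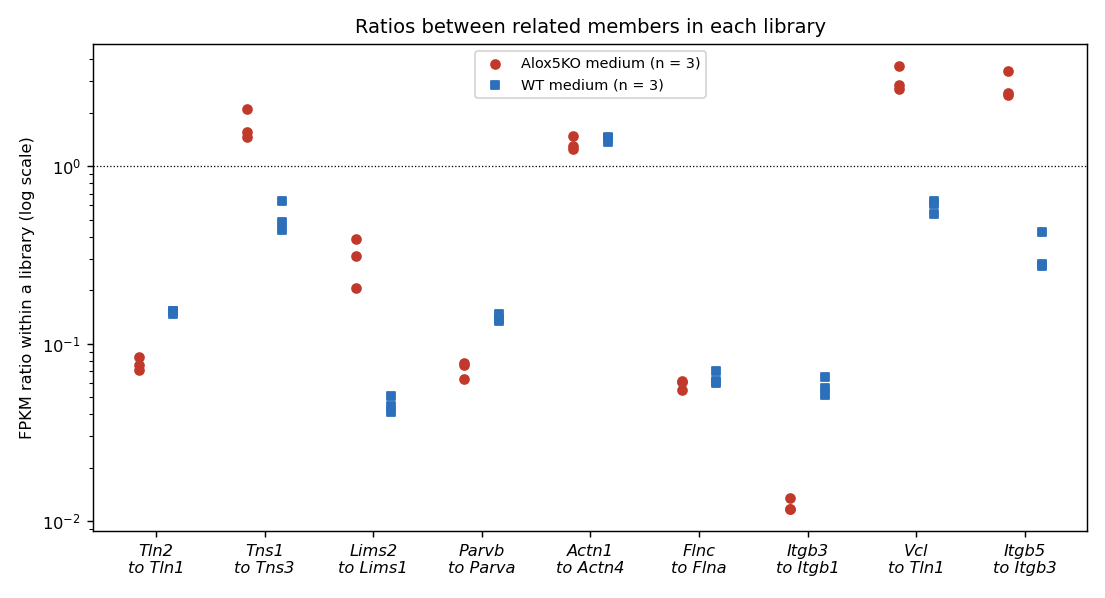
FPKM ratio of related members within each library on a log axis, with Alox5KO-medium libraries as red circles left of WT-medium libraries as blue squares, for the 7 paralog pairs and the 2 ratios chosen after the values were seen. The ratios of Tns1 to Tns3, Vcl to Tln1 and Itgb5 to Itgb3 lie above 1 with Alox5KO medium and below 1 with WT medium, and those of Actn1 to Actn4 and Flnc to Flna overlap.

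Adhesion genes outside the membership were read from 5 lists, of which 119 genes were in the table and 102 tested. Together 25 rose and 8 fell, or 24.5% and 7.84% of those tested, with a median log2 fold change of 0.16; 95 of the 102 had at least 1 FPKM in both groups. Among 28 tested scaffold and linker genes 12 rose and 1 fell, or 42.9% and 3.57%, against 10.0% and 10.6% of all tested genes. Of the 28, 4 had less than 1 FPKM in a group. Among them were Sorbs2 and Synpo2, which passed the filter through the group where they were high. Filip1l had 47.4, 37.9 and 38.1 FPKM with Alox5KO medium, against 6.97, 7.78 and 9.04 FPKM with WT medium, and rose by 2.24 without overlap (limma, BH-adjusted p = 6e-06). Sorbs2, whose product binds vinculin, averaged 5.26 ± 0.221 FPKM with Alox5KO medium and 0.767 ± 0.167 FPKM with WT medium (SD, n = 3 each) and rose by 1.83, and the LIM gene Csrp1 rose by 1.08 (limma, BH-adjusted p of 3.3e-05 and 0.00014). The single fall, of the syntenin gene Sdcbp by 0.45, lost its call without Alox5KO-medium replicate 2 or 3 or WT-medium replicate 1 or 2.

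Of 37 tested adhesion signalling genes outside the membership 4 rose and 2 fell, for the rises a share near the background of 10.0% higher. The 4 with the smallest p were the Rac exchange factor gene Arhgef6, which rose by 1.30 (limma, BH-adjusted p = 0.0028), the p130Cas relative Nedd9, which rose by 0.63 (0.012), the small GTPase gene Rhob, which rose by 0.41 (0.013), and the Src-family kinase gene Fyn, which fell by 0.41 (0.014). The rises numbered 2 without Alox5KO-medium replicate 3 or WT-medium replicate 2, and the falls 0 without WT-medium replicate 1 and 1 without WT-medium replicate 3 or any single Alox5KO-medium replicate.

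Of 12 tested integrin alpha chains 4 rose and 2 fell, or 33.3% and 16.7%, against 10.0% and 10.6% of all tested genes. Of the 12, 3 passed the filter with less than 1 FPKM in a group. Itga8, whose chain pairs with beta-1, had 45.0, 36.0 and 37.2 FPKM with Alox5KO medium, against 2.94, 2.93 and 4.28 FPKM with WT medium, and rose by 3.21 (limma, BH-adjusted p = 1.9e-06). Itga4, Itga9 and Itga6 rose by 1.63, 1.70 and 1.31, each with a WT-medium mean of at most 1.30 FPKM. Itgav, the shared partner of beta-3, beta-5 and beta-8, had 61.1 ± 1.43 FPKM with Alox5KO medium and 78.6 ± 14.3 FPKM with WT medium (SD, n = 3 each) and was not called, with a limma adjusted p of 0.094.

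Among 17 tested integrin ligands 3 rose and 3 fell, or 17.6% each way, against 10.0% higher and 10.6% lower among all tested genes. Their median log2 fold change was -0.02. Ccn1 and Thbs1 rose by 1.64 and 1.70, and the laminin chain gene Lama5 and the fibronectin gene Fn1 fell by 1.63 and 1.10 (limma, BH-adjusted p of 1.7e-05, 0.00055, 2.8e-05 and 0.0017). Of 8 tested transcription regulators of cytoskeletal genes 2 rose, or 25%, against 10.0% of all tested genes. Srf, the serum response factor that drives vinculin and actin genes, had 27.8, 30.0 and 34.0 FPKM with Alox5KO medium, against 16.9, 15.8 and 16.3 FPKM with WT medium, and rose by 0.86 (limma, BH-adjusted p = 0.00044). Tead3, a partner of YAP, rose by 0.52 (limma, BH-adjusted p = 0.028); of this list 1 gene was called higher without Alox5KO-medium replicate 2 or 3 or WT-medium replicate 1 or 2.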

How the data were processed

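Total RNA was extracted with TRIzol and libraries were made with a NEBNext Ultra kit, per the labels' protocols. The submitters' processing notes name, without roles, the aligner HISAT2 2.0.5, the counter featureCounts 1.5.0-p3, and also fastp, CASAVA 1.8, mm10 and DESeq2 1.20.0. The labels name mouse, yet 32883 of 33682 rows carry rat identifiers and 0 carry mouse ones; no rat build is named in the sources used here. The authors deposited FPKM values, 1 column per sample, with gene lengths in bases and positions, per the file headers. No source used here states stranded counting, so overlapping genes are uncertain. FPKM times gene length was a whole multiple of a step per column for 100% of values within 0.05 reads. On a gene of 1 kilobase, 3 reads were worth 0.185 to 0.228 FPKM, counting error only.

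Values were analysed as log2(FPKM + 1), which understates changes of low genes, for genes averaging 1 FPKM or more, with limma 3.58.1 in R 4.3.3 (trend, robust prior, two-sided, Benjamini-Hochberg at 0.05 over all tested genes). Fold changes are Alox5KO medium minus WT medium, without a block for replicate number. The fit was tested on simulated data. Members, lists and alternatives were chosen with earlier results of these data known. All members are named, and of other lists up to 4 called genes with the smallest p (1 of them is not reported here), besides the marker genes named, Itgav, Sdcbp and Synpo2, which were chosen after their values were seen. Promoter sequences of rat were not used here.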

Additional observations from a re-analysis of the deposited data

How the results depend on the processing

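Alternatives were pseudocounts of 0.1 and 0.5, no filter, a filter of 5 FPKM, quantile normalization, median-ratio scaling, TPM scaling, limma-voom on recovered reads, the replicate number as a block, and each library left out. Scaling moved the median of all tested genes to at most 0.0551. Of 21 members called higher 15 kept the call in all 15 alternatives, of 4 called lower all 4 did, and of 8 not called 3 kept their direction and stayed uncalled. With 1 library left out, all tested genes gave 791 to 1226 higher and 862 to 1325 lower calls, the lowest without WT-medium replicate 1, the members' median ran from 0.46 to 0.62, and the 5 other lists together gave 5 to 8 lower calls. Zyx reversed to 0.0648 with quantile normalization and 0.0531 with TPM scaling and ran from -0.12 to 0.10 with 1 library left out; Tns2 reversed to 0.0248 with TPM scaling and ran from -0.11 to 0.0724, and Tln1 ran from -0.0633 to 0.12. The cause of these changes was not tested. With no filter, which adjusts over more genes, the calls of Flnc and Lpp were lost, and with TPM scaling that of Flnc. With the replicate block, 19 members were higher and 4 lower, the calls of Lpp and Parva being lost at limma adjusted p of 0.14 and 0.054. Same-numbered libraries correlated at -0.0963, 0.105 and 0.167 in their deviations from group means, and 4 of 6 libraries correlated best with their own number. These values do not settle whether the numbers mark pairs, and the main fit has no block for them. Among lists, integrin alpha chains gave 1 higher and 0 lower call with the filter of 5 FPKM, which tests fewer genes, against 4 and 2; regulators gave 1 higher call with no filter and 5 with the block, against 2; signalling genes gave 1 lower call with no filter or TPM scaling, against 2; and scaffolds gave 2 lower calls with either other pseudocount, limma-voom or the block, against 1. Leaving out libraries, an alternative added for the ratios after the data were seen, turned no ratio of paralogs round. Depth limits Itgb7, with 14 reads in all.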
